A study of Rattus norvegicus with 8 samples.

Results

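GABA-A receptor subunits were described in the lumbar spinal cord of stressed and control rats. The members were the 7 genes Gabra2, Gabra3, Gabra5, Gabrb1, Gabrb2, Gabrg1 and Gabrd, taken by the gene name given in the array files for spots that are not controls. They are 7 of 26514 gene names on the array and were measured by 7 of its 30367 probes, 1 for each gene. Each of these probes had 2 spots, and all 7 were well above background on all 8 arrays and entered the test with 23678 probes in all. The labels name no altered gene in either group, so there is no targeted gene to check.

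Male Wistar rats of 12 weeks were studied in 2 groups of 4. Stressed rats underwent water avoidance (WA) stress, in which a rat sits on a small platform surrounded by water for sessions of 1 h, on 10 days, and tissue was taken 24 h after the last session. Control rats had the same strain, sex and age and no such stress, and by the abstract of the study they were handled for 10 days instead. The labels name no transgene and no drug in either group. By the methods of the study, the meninges were removed and the L6S1 segments of the cord were dissected whole, and each RNA was hybridised to its own Agilent rat array in 1 colour. Levels are the log2 processed signal minus the 75th percentile of the same array, so 0 is the signal of a probe at that percentile. All differences are stressed minus control on this log2 scale, and they are called at a false discovery rate (FDR) below 0.1 in limma over all tested probes.

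GABA-A receptors are chloride channels opened by GABA, the main fast inhibitory transmitter of the brain. Each receptor is a ring of subunits, most often of alpha, beta and gamma type, and the alpha subunit and its neighbours set where the receptor sits and which drugs act on it. In the spinal dorsal horn these receptors dampen the relay of pain signals, and receptors with alpha2 or alpha3 are known for the pain-relieving action of benzodiazepines there.

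All 8 arrays lie on 1 slide with 1 scan time, and the stressed rats fill slide row 1 and the control rats row 2, so row and group cannot be told apart. On the main axis of a principal component analysis, control replicate 2 was at 46.1, the remaining control rats were at -56.2 to -39.4, and the stressed rats were at 8.23 to 34.5. A measure of transcript coverage, here called 5′ bias, was taken on each array as the median, over 1887 transcripts, of the log2 signal of a 5′ probe minus that of a 3′ probe at least 300 bases away, centred over the arrays. This 5′ bias was 0.22 in control replicate 2, -0.30 to -0.18 in the other control rats and 0.09 to 0.17 in the stressed rats. The differences of the 7 subunits are therefore given with and without control replicate 2. Differences of other genes are given with all 8 arrays only.

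The probes are 60 bases long, and the level of a subunit on this array is that of the short stretch of transcript that its probe reads. The probe of Gabra2 lies at chr14:39661796-39662852 of the rn4 assembly and that of Gabra3 at chrX:158416663-158422492. As 60 bases span 1057 and 5830 bases of the genome there, both probes cross at least 1 exon boundary. The 5 other probes lie in a single stretch, for Gabra5 at chr1:108844189-108844248, for Gabrb1 at chr14:38530433-38530492, for Gabrb2 at chr10:27819086-27819145, for Gabrg1 at chr14:39951099-39951158 and for Gabrd at chr5:172203200-172203260. In their transcripts the probes begin at base 696 for Gabra2 and 979 for Gabra3, and between bases 1365 and 1710 for the 5 others. Exons and UTRs of rn4 were not analysed here.

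The sequences of 5 probes are shown, since they are the stretches of transcript on which the values below rest and they show which letters the probes of a pair share. Binding of a probe to the transcripts of other subunits was not tested. Capitals mark the bases that are identical within a pair in the best ungapped alignment, of Gabra2 with Gabra3 and of Gabrb2 with Gabrg1. The probe of Gabra5 has no such partner, so it is in lower case throughout, and it is shown because control replicate 2 lay below the other control rats for this subunit alone.
Gabra2: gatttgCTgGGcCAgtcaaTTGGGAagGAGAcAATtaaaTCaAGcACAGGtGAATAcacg
Gabra3: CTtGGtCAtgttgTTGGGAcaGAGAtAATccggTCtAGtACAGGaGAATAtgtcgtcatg
Gabrb2: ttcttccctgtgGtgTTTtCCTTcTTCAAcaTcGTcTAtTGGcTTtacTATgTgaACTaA
Gabrg1: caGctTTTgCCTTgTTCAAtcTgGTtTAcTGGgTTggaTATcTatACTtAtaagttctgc
Gabra5: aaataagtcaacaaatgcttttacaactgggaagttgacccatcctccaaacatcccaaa
Gabra2 and Gabra3 share 33 of 54 aligned bases, and Gabrb2 and Gabrg1 share 31 of 50. The other 19 of the 21 pairs of member probes share 17 to 22 bases. The probes of both pairs thus read stretches with partly shared letters and with mismatches spread along their length.

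None of the 7 subunits passed the test. Of all tested probes, 885 were called at FDR below 0.1, which is 3.74%. Of these calls 74.0% were higher in stressed rats, against 58.1% with quantile normalization, 52.5% with a rank-invariant curve and 22.7% with no scaling between arrays, which moved the median difference of all probes to -0.14. The adjusted p values of the subunits ran from 0.172 to 0.362 (limma). At an unadjusted p below 0.05 in limma, 3 subunits had a higher level in stressed rats, Gabra2, Gabrb2 and Gabrg1, against 13.6% of all tested probes. By the same rule 1 subunit, Gabrb1, had a lower level, against 6.67% of all tested probes. The differences were above 0 for 6 of 7 subunits, against 59.6% of all tested probes, and the direction of Gabra3 turned with 5′ bias as a covariate and that of Gabrd with no scaling between arrays. The median difference was 0.40 over the 7 subunits and 0.06 over all tested probes. With quantile normalization it was 0.24 over the 7 subunits and -0.0045 over all tested probes. In 1 of 7 subunits, Gabrb2, the groups did not overlap, against 12.1% of all tested probes. The exact permutation test over the 70 choices of 4 of 8 arrays, two-sided, gives 0.0286 at the least, and Gabrb2 was the only one of the 7 to reach it.

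**Figure D1:**
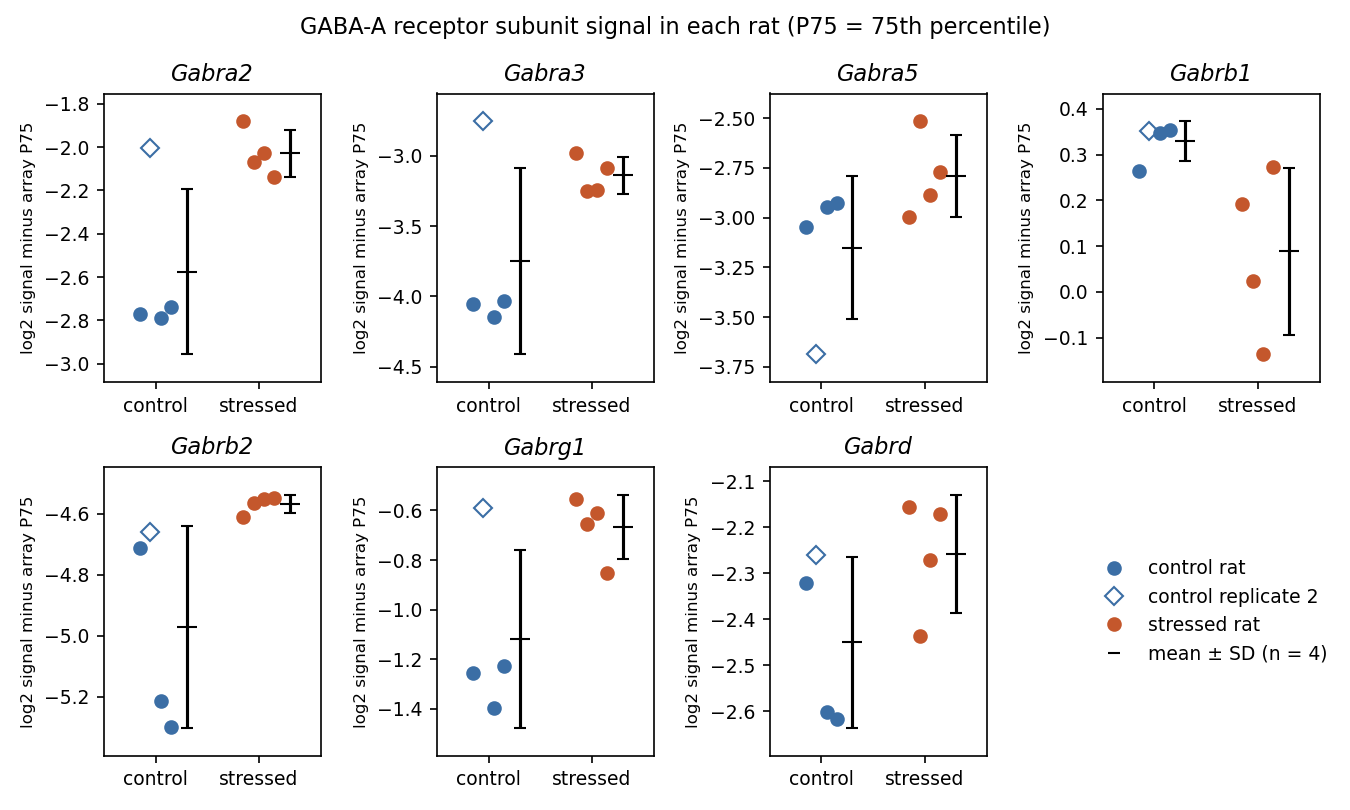
Log2 signal minus the 75th percentile of the array (y axis, its own range in each panel) of 7 GABA-A receptor subunits in 4 control and 4 stressed rats, with points for rats, an open diamond for control replicate 2, and bars for mean ± SD. In Gabra2, Gabrg1 and Gabrd the diamond lies within the range of the stressed rats. In Gabra3 it is the highest of all points and in Gabra5 the lowest, and only in Gabrb2 do the groups not overlap.

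Among the alpha subunits, Gabra2 encodes the alpha2 subunit, found at many inhibitory synapses of the dorsal horn and on motor neurons. Its level was -2.77, -2.01, -2.79 and -2.74 in control replicates 1 to 4 and -1.88, -2.07, -2.03 and -2.14 in stressed replicates 1 to 4. The stressed rats lay close together and above 3 of the control rats, and control replicate 2 lay among them, so the groups overlapped. The means were -2.58 ± 0.38 (SD, n = 4) in control and -2.03 ± 0.11 (SD, n = 4) in stressed rats. Their difference was 0.55 with a standard error (SE) of 0.18 and a 95% interval from 0.13 to 0.97, a fold of 1.46 (limma, adjusted p = 0.172). The exact permutation p was 0.114.

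Gabra3 encodes the alpha3 subunit, also a synaptic subunit of the dorsal horn. In control replicates 1 to 4 its level was -4.05, -2.75, -4.15 and -4.03, and in stressed replicates 1 to 4 it was -2.98, -3.25, -3.24 and -3.09. Control replicate 2 was the highest of all 8 rats and the other 3 control rats were the lowest. With means of -3.75 ± 0.66 (SD, n = 4) and -3.14 ± 0.13 (SD, n = 4), the difference was 0.61 (SE 0.30, 95% interval -0.09 to 1.30, limma adjusted p = 0.291), and the exact permutation p was 0.143.

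Gabra5 encodes the alpha5 subunit, much of which lies outside synapses. The level in control replicates 1 to 4 was -3.05, -3.69, -2.94 and -2.92, and in stressed replicates 1 to 4 it was -2.995, -2.52, -2.89 and -2.77. Here control replicate 2 was the lowest of all rats, and stressed replicates 2, 3 and 4 lay above all control rats while stressed replicate 1 did not. Means were -3.15 ± 0.36 (SD, n = 4) in control and -2.79 ± 0.21 (SD, n = 4) in stressed rats, a difference of 0.36 (SE 0.19, 95% interval -0.08 to 0.80, limma adjusted p = 0.317). The exact permutation p was 0.114.

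Among the beta subunits, which bind GABA together with alpha and anchor the receptor to the trafficking machinery, the difference was below 0 for Gabrb1 and above 0 for Gabrb2. Gabrb1 was at 0.26, 0.35, 0.35 and 0.35 in control replicates 1 to 4 and at 0.19, 0.02, -0.14 and 0.27 in stressed replicates 1 to 4. It was the only one of the 7 with a lower mean in stressed rats, and stressed replicates 1, 2 and 3 lay below all control rats, while stressed replicate 4 lay just above control replicate 1. The means were 0.33 ± 0.04 (SD, n = 4) and 0.09 ± 0.18 (SD, n = 4), and the difference was -0.24 (SE 0.10, 95% interval -0.47 to -0.01, limma adjusted p = 0.233, exact permutation p = 0.0571). For this subunit control replicate 2 was 0.03 above the mean of the other control rats, the smallest such gap of the 7.

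Gabrb2 was at -4.71, -4.66, -5.21 and -5.30 in control replicates 1 to 4 and at -4.61, -4.56, -4.55 and -4.55 in stressed replicates 1 to 4. The lowest stressed rat lay above the highest control rat, with a narrow gap between control replicate 2 and stressed replicate 1. Means of -4.97 ± 0.33 (SD, n = 4) and -4.57 ± 0.03 (SD, n = 4) gave a difference of 0.40 (SE 0.15, 95% interval 0.04 to 0.76, limma adjusted p = 0.212), and the exact permutation p was 0.0286. The separation rests on the mean of both spots. The spots of this probe differed by a median of 0.53 log2 within an array, up to 1.06, and in each spot alone the groups overlapped. Its processed intensity ran from 41.2 to 101 over all spots.

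Gabrg1 encodes the gamma1 subunit, one of the gamma subunits that complete a receptor at the synapse. Its level was -1.25, -0.59, -1.40 and -1.23 in control replicates 1 to 4 and -0.55, -0.66, -0.61 and -0.85 in stressed replicates 1 to 4. As for Gabra2, the stressed rats and control replicate 2 lay together, above the other 3 control rats. From means of -1.12 ± 0.36 (SD, n = 4) and -0.67 ± 0.13 (SD, n = 4), the difference was 0.45 (SE 0.18, 95% interval 0.04 to 0.86, limma adjusted p = 0.216, exact permutation p = 0.114).

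Gabrd encodes the delta subunit of receptors outside synapses, which respond to low ambient GABA. In control replicates 1 to 4 it was at -2.32, -2.26, -2.60 and -2.62, and in stressed replicates 1 to 4 at -2.16, -2.44, -2.27 and -2.17. Only stressed replicates 1 and 4 lay above all control rats. The means of -2.45 ± 0.19 (SD, n = 4) and -2.26 ± 0.13 (SD, n = 4) differed by 0.19 (SE 0.11, 95% interval -0.07 to 0.45, limma adjusted p = 0.362, exact permutation p = 0.2), and with no scaling between arrays the difference was -0.0070.

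In bulk tissue, a change in the number of cells of a type and a change in RNA per cell cannot be told apart, and this holds for each value given here.

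Leaving out control replicate 2 changed which subunits passed. Without it, 7219 probes were called higher in stressed rats, 30.5% of those tested, and 2817 were called lower, 11.9%. On these 7 arrays, 4 of 7 subunits were called, all higher in stressed rats, and no subunit was called lower. Gabra3 differed by 0.94 (SE 0.08, limma adjusted p = 0.000825) and Gabra2 by 0.74 (SE 0.07, limma adjusted p = 0.00101). For Gabrg1 the difference was 0.63 (limma adjusted p = 0.00295), and for Gabrb2 it was 0.51 (limma adjusted p = 0.0315). Gabra5 at 0.18, Gabrb1 at -0.23 and Gabrd at 0.26 were not called. With any other single array left out, no subunit was called, and of all 23678 tested probes 0 to 72 were called. When all 8 arrays were kept but weighted by limma, control replicate 2 had a weight of 0.107 and 6 of 7 subunits were called, against 50.6% of all tested probes. Gabrb1 was then called lower in stressed rats (-0.25, limma adjusted p = 0.0404), 5 subunits were called higher, and Gabra5 was not called.

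The gap between control replicate 2 and the mean of the other control rats was 1.32 for Gabra3, 0.76 for Gabra2, 0.70 for Gabrg1, 0.41 for Gabrb2, 0.25 for Gabrd and 0.03 for Gabrb1. It was -0.71 for Gabra5. This array is also the one control array with a positive 5′ bias. When 5′ bias entered the fit as a covariate, Gabra2 was at 0.11, Gabrg1 at 0.03, Gabrb2 at 0.22 and Gabrd at 0.08, and Gabra3 was at -0.12 (limma adjusted p = 0.658). Gabrb1 stayed at -0.24. Gabra5 was at 0.75 and was the only subunit called (limma adjusted p = 0.0547), against 10.1% of all tested probes called in this fit. Apart from control replicate 2, the covariate itself does not overlap between the groups.

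**Figure D2:**
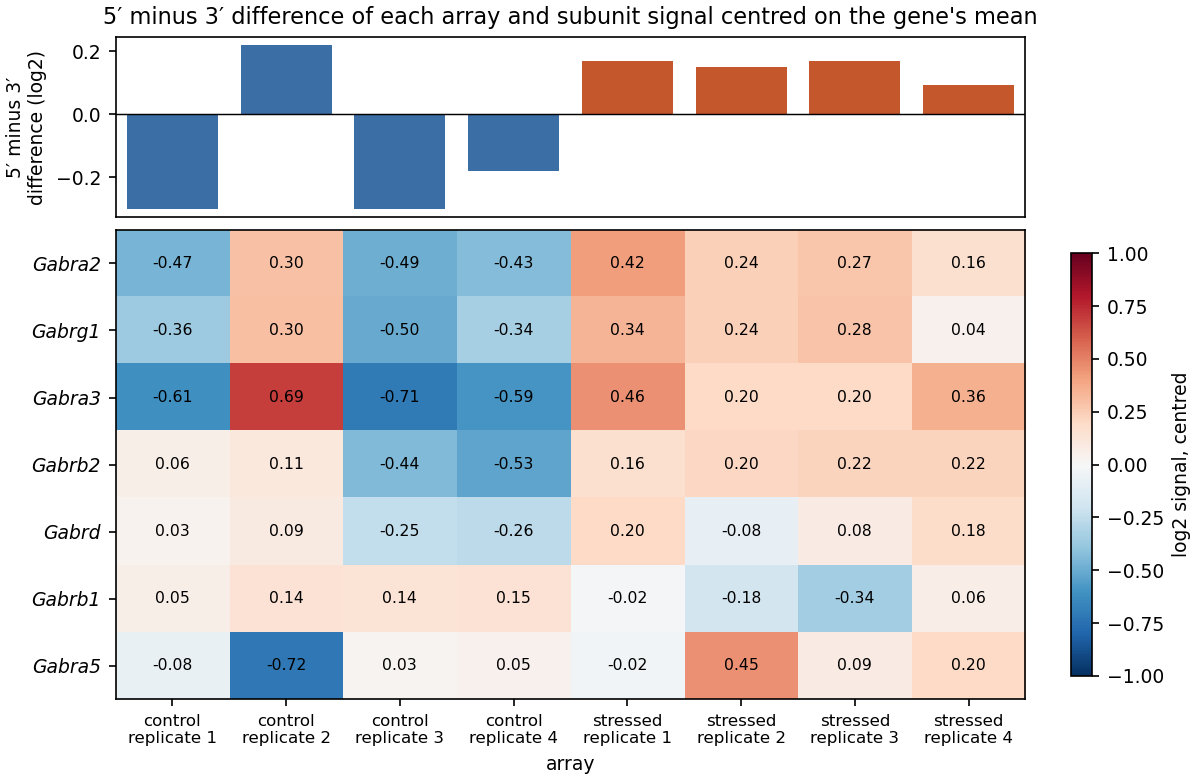
Bars show the 5′ bias (5′ minus 3′ difference, log2) of every array, and the cells below show each subunit's log2 signal minus its own mean over the 8 arrays. Gabra2, Gabrg1 and Gabra3 are below their means in control replicates 1, 3 and 4 and above them in control replicate 2 and all stressed arrays, in the same order of sign as the bars, while Gabra5 in control replicate 2 is at -0.72.

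**Figure D3:**
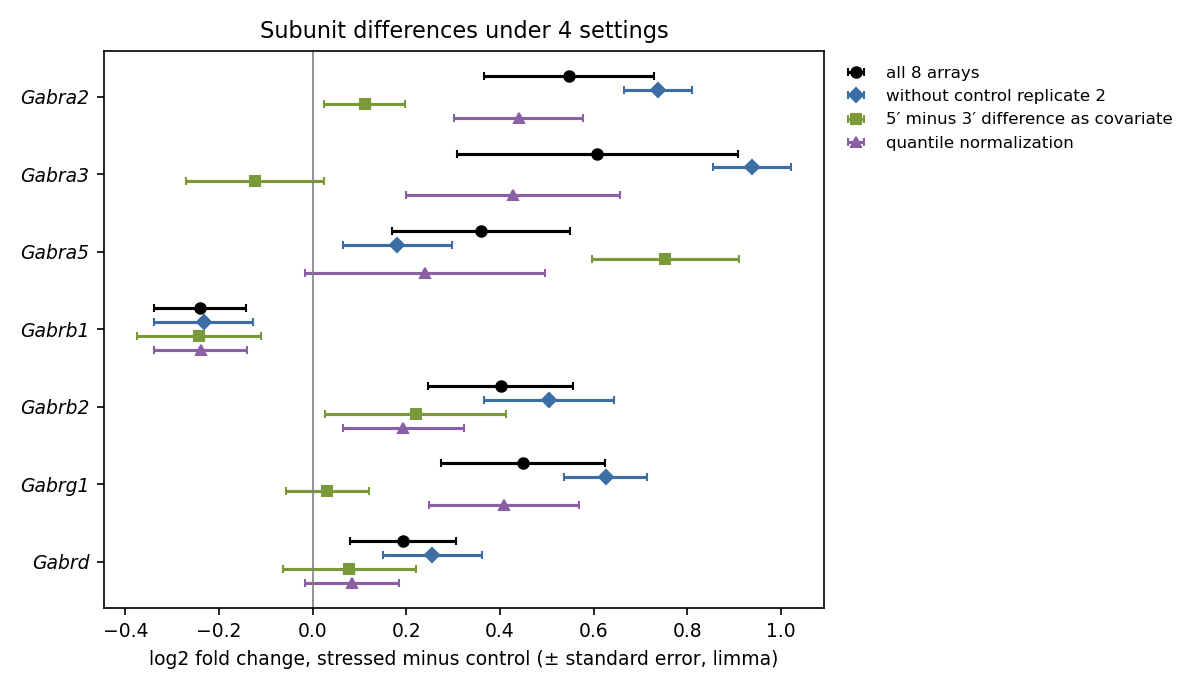
Log2 fold change, stressed minus control, with its standard error (limma) for each subunit under 4 settings. Gabrb1 lies at or near -0.24 in each, Gabra2 and Gabrg1 lie near 0 with 5′ bias (5′ minus 3′ difference) as a covariate, Gabra3 is then at -0.12, and Gabra5 is then at 0.75.

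The 7 profiles over the 8 arrays were set against each other after each was centred on its mean. The closest of the 21 pairs was Gabra2 with Gabrg1, with a root mean square difference of 0.07 log2, and the farthest was Gabra3 with Gabra5, with 0.66. Gabra2 and Gabrg1 are neighbours on chromosome 14 with 0 protein-coding genes between them in the RefSeq annotation of assembly GRCr8. Gabrb1, with the opposite sign of difference, lies in the same cluster, next to Gabra4. The profile nearest to each member among all other named genes was Robo4 for Gabra2 (0.03), Sp4 for Gabra3 (0.07), Ppp1cb for Gabra5 (0.07), Gstm7 for Gabrb1 (0.03), Arhgef15 for Gabrb2 (0.09), Hist2h3c2 for Gabrg1 (0.04) and Itga11 for Gabrd (0.04). These are root mean square differences in log2 over 8 arrays that share their slide and their spread in 5′ bias, and carry no test.

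The other GABA-A subunit genes gave the same count of calls. Of 12 such genes with a probe, 6 could be tested, and 0 were called at FDR below 0.1, against 3.74% of all tested probes. At an unadjusted p below 0.05 (limma), 0 were higher and 0 lower, against 13.6% and 6.67% of all tested probes. Gabra6, Gabrp, Gabrr1, Gabrr2, Gabre and Gabrr3 were not well above background on enough arrays. The difference was above 0 for 5 of the 6 tested genes, against 59.6% of all tested probes, with a median of 0.21. Gabra4, an alpha subunit of receptors outside synapses, was at 0.36 (SE 0.20, limma adjusted p = 0.334). The lowest was Gabrq, which encodes the theta subunit, with -0.12 (SE 0.10, limma adjusted p = 0.496), the only one below 0. Gabrg3, a gamma subunit, was at 0.20, but its probe was well above background on only 3 control arrays and 1 stressed array. The gap between control replicate 2 and the mean of the other control rats was 0.81 for Gabra4, 0.52 for Gabrg3 and -0.26 for Gabrq. In none of the 6 did the groups separate, against 12.1% of all tested probes.

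**Figure D4:**
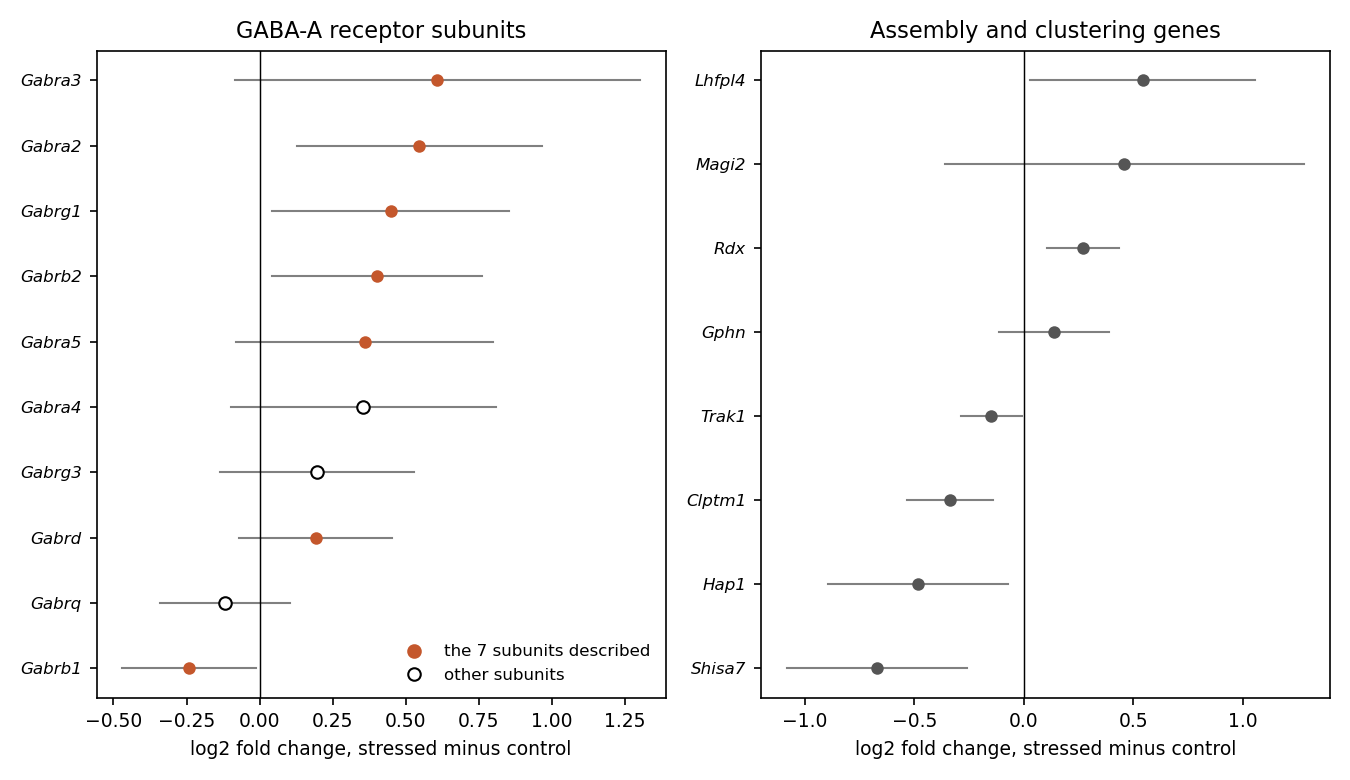
Log2 fold change, stressed minus control, with its 95% interval (limma) for GABA-A receptor subunits (left, filled for the 7 described, open for 3 others) and for 8 genes of receptor assembly and clustering (right), those named in the text, each by its brightest probe. Gabrb1 and Gabrq are the only subunits below 0 with all arrays and this scaling, and the right panel runs from Shisa7 at -0.67 to Lhfpl4 at 0.54.

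Genes whose products carry, assemble or hold GABA-A receptors at the synapse were also read from a list. All 21 were tested, with the brightest probe for each gene, and 0 were called at FDR below 0.1, against 3.74% of all tested probes. At an unadjusted p below 0.05 (limma), 3 of 21 were at a higher and 4 of 21 at a lower level under stress, against 13.6% and 6.67% of all tested probes. The difference was above 0 for 12 and below 0 for 9, with a median of 0.03, and above 0 for 59.6% of all tested probes. Lhfpl4, which brings receptors to gephyrin clusters, was at 0.54 (SE 0.22, limma adjusted p = 0.231), and Magi2, a scaffold of synapses, at 0.46 (SE 0.35, limma adjusted p = 0.476). The lowest were Shisa7, an auxiliary subunit that shapes receptor trafficking and kinetics, at -0.67 (SE 0.18, limma adjusted p = 0.119), and Hap1, which carries receptors along microtubules, at -0.48 (SE 0.18, limma adjusted p = 0.199). The probes of Shisa7 did not agree in sign, as its other tested probes were at -0.53 and 0.16. Gphn, the gephyrin scaffold, was at 0.14 (limma adjusted p = 0.484), and its second probe was at 0.33 (limma adjusted p = 0.224). In 3 of 21 genes the groups did not overlap, against 12.1% of all tested probes. They were Clptm1 (-0.34), Rdx (0.27) and Trak1 (-0.15), named after their values were seen, and the second probes of Rdx, at 0.13, and of Trak1, at 0.65 with the opposite sign, had overlapping groups. Adjusted p values of the brightest probes were 0.105, 0.118 and 0.229 (limma).

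Marker genes of cell types were read beside the subunits. Over all tested probes, 3.74% were called and the difference was above 0 for 59.6%. For inhibitory neurons, 0 of 4 markers (Gad1, Gad2, Slc32a1 and Slc6a5) were called, the median difference was -0.16, and their summed signal, in multiples of the array's 75th percentile, ran from 27.8 to 31.2 in control and from 27.3 to 29.9 in stressed rats. The sum of the 7 tested neuronal markers ran from 186 to 204 in control and from 180 to 215 in stressed rats. The difference was above 0 for 5 of these 7, with a median of 0.09. Of the 7, 1 was called, Eno2, which was lower in stressed rats (-0.37, limma adjusted p = 0.0649). Rbfox3 and the motor neuron marker Mnx1 had no tested probe. Astrocyte markers summed to 94.9 to 110 in control and 101 to 131 in stressed rats with 0 of 7 called, and oligodendrocyte markers to 228 to 335 and 249 to 344 with 1 of 7 called, Mog (0.90, limma adjusted p = 0.0721). The endothelial marker Pecam1 was higher in stressed rats (0.40, limma adjusted p = 0.0927), with the sum of 5 markers at 2.71 to 3.73 in control and 3.19 to 3.92 in stressed rats. Schwann cell markers, which come from nerve roots, ran from 0.294 to 53.05 in control and 0.278 to 13.3 in stressed rats, with 0 of 3 called. The 4 tested motor neuron markers summed to 7.82 to 9.67 in control and 6.10 to 8.66 in stressed rats, and the 5 markers of meninges and fibroblasts to 1.32 to 5.63 and 1.28 to 3.95. In these lists, and in those of oligodendrocyte precursors, microglia and red blood cells, 0 markers were called. Median differences were 0.26 for astrocytes, 0.27 for oligodendrocytes, 0.17 for endothelial cells, 0.16 for oligodendrocyte precursors and 0.08 for microglia. They were -0.13 for motor neurons, -1.18 for Schwann cells, -0.32 for meninges and fibroblasts and -0.03 for red blood cells. The median over all tested probes was 0.06. The part of these cell types in the subunit values was not tested.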

How the data were processed

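The authors deposited 1 scanner file per array from Agilent Feature Extraction 10.7.3.1, per the file headers, with processed intensity values that are background-subtracted and detrended within the array, and a joint file of the same intensity values rounded. No scaling between arrays was found in either. Spots with outlier flags were set to missing and the 4259 control spots left out. The log2 intensity minus each array's 75th percentile was averaged over the spots of a probe. A probe was tested when well above background, in at least 0.5 of its spots, on at least 4 of 8 arrays regardless of group. Stressed and control rats were compared by limma 3.58.1 (lmFit, eBayes), run in R 4.3.3 with the data.table package (version 1.17.8), without covariates, two-sided, with Benjamini-Hochberg adjustment over 23678 probes, and the fit was tested on simulated data. Single values also had an exact permutation test. The tool and thresholds named by the methods were dChip and FDR of 0.1 and 0.05, and the test they used is not given in the sources used here.

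The members, the lists of genes and the alternatives were chosen with earlier results of these data known. Named were all members, the 2 highest and 2 lowest differences in the other lists, any gene called there, and the gene with the nearest profile to each member, though some of these genes are not reported here. Names that are only clone, transcript or locus identifiers were passed over for the latter, by a choice made after the values were seen. All 19 subunit probes matched RefSeq by accession with the same symbol. Alternatives were quantile normalization, a rank-invariant curve, normexp (offset of 50), the deposited value file, no dim-probe filter or a filter on all 8 arrays, robust eBayes with a variance trend, array weights, the replicate number as a block, a single probe per symbol, 5′ bias as covariate and leaving out each array. Added after seeing the data were no scaling between arrays and each spot alone. The number of arrays limits the precision, and nothing beyond the replicate labels shows how far rats of a group were independent, so p values measure the spread between these samples.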

Additional observations from a re-analysis of the deposited data

Results flagged for a closer look

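A sample far from the rest of its group was sought in 14 groups of 4 rats, 7 subunits in control and in stressed rats, by the gap of the highest or lowest sample to its neighbour as a share of the group's range, against Dixon's 95% limit for 4 samples. Chance gives about 1 such sample in 20 independent groups. The 14 groups here are 7 subunits read in the same 8 rats, so they are not independent. Their count is not set against this rate. For 3 subunits the far sample was control replicate 2. It was the highest of its group for Gabra2, with a share of 0.930, and for Gabra3, with 0.917. For Gabra5 it was the lowest, with 0.840. For Gabrb1 the far sample was control replicate 1, the lowest of its group, with 0.915.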

How the results depend on the processing

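With all arrays kept, no subunit was called under any alternative but 3. Array weights gave 6 of 7 subunits, 5 of 6 other tested subunit genes, 13 of 21 assembly genes and 11983 of all probes, which is 50.6%. The weight of control replicate 2 was 0.107. The 5′ bias (5′ minus 3′ difference) as covariate gave 1 subunit, Gabra5, 1 assembly gene and 2393 probes (10.1%). With this covariate the median over the subunits was 0.078, and Gabra3 turned to -0.12. No scaling between arrays, added after seeing the data, gave 1 subunit, Gabrb1 (-0.44, limma adjusted p = 0.0998), 2 assembly genes and 1794 probes, and turned Gabrd to -0.0070. All probes called were 215 with normexp, 88.4% of them higher in stressed rats, and 3010 with no filter on dim probes, which also gave 1 other subunit gene and 3 assembly genes. Assembly genes called were 1 with quantile normalization, against 1180 of 23678 probes, and 2 with the rank-invariant curve, against 1157 of 23678. They were 1 with the filter on all 8 arrays, against 1079 of 22036 probes, and 3 with a variance trend, against 1295 of 23678. With the first spot of each probe they were 2, against 682 of 23565 probes. The cause of these shifts was not tested.

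With each array left out in turn, the calls ran from 0 to 10036 of 23678 probes and from 0 to 4 of 7 subunits. They ran from 0 to 3 of 6 other subunit genes and from 0 to 12 of 21 assembly genes. The highest values are those without control replicate 2, where 30.5% of all tested probes were called higher and 11.9% lower. The counts for all probes were 0 to 72 without any other array (0 without control replicate 3, stressed replicate 1 or stressed replicate 2). Differences over these fits ran from 0.48 to 0.74 for Gabra2, 0.47 to 0.94 for Gabra3, 0.18 to 0.43 for Gabra5, -0.30 to -0.17 for Gabrb1, 0.29 to 0.51 for Gabrb2, 0.36 to 0.63 for Gabrg1 and 0.14 to 0.26 for Gabrd.

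Replicate numbers are shared between groups and coincide with slide columns, but same-numbered samples did not deviate together throughout, with correlations of 0.10, 0.12, -0.09 and 0.31. With the replicate number as a block, 0 probes and 0 subunits were called. The 95% intervals of the subunits leave differences of up to 1.30 for Gabra3 and 0.97 for Gabra2 possible, so an adjusted p above the threshold does not show equal levels. Differences rest on 4 arrays a group and on 1 probe a gene, and the spots of Gabrb2 differed by up to 1.06 on 1 array.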
